A study of Homo sapiens with 12 samples.

Results

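In MKL-1 cells, 96 protein-coding genes that vehicle cells already transcribed stood at least 4 times higher after 12 days of EZH2 inhibition. MKL-1 is an established human Merkel cell carcinoma line. The inhibitor was EPZ011989, given at 3 µM in 1% ethanol. Vehicle cells had 1% ethanol only, and treatments were renewed every 3 days. PolyA-selected RNA was sequenced from 3 libraries of each of 4 groups, which were EPZ011989 and vehicle at day 6, and EPZ011989 and vehicle at day 12. The 96 genes were chosen from the authors' table of normalized counts by 2 conditions. Each of the 6 vehicle libraries, from both days, had to read at least 200, and the mean of the day 12 EPZ011989 libraries had to be at least 4 times the mean of the day 12 vehicle libraries. There were 28813 genes in that table, 9377 of them met the first condition and are called well expressed below, and the 96 are 1.02% of these. The median of the day 12 vehicle means was 644 for the 96 genes, below the 1052 of all well expressed genes. The rise at day 12 is therefore how the genes were found, and its values are given as a description without a test. The day 6 EPZ011989 libraries took no part in the choice, and the day 6 vehicle libraries entered only through the floor.

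The enzyme EZH2 adds methyl groups to lysine 27 of histone H3 as part of Polycomb repressive complex 2 (PRC2). The trimethylated form marks silent or weakly transcribed genes, among them many developmental and neural ones, and is lost gradually, largely by dilution at replication, once the enzyme is blocked. PRC2 targets are often thought of as fully silent. The genes described here were transcribed in vehicle cells, and whether they are PRC2 targets was not tested. Merkel cell carcinoma is a neuroendocrine skin cancer whose cells express neural and secretory genes together with the lineage factors ATOH1 and SOX2.

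Promoters of 71 of the 96 genes were in a RefSeq table for GRCh38.p14 that covers 250 bases before to 50 bases after the start of transcription. For 57 of the 71 (80.3%) the ratio of observed to chance CG pairs in this window was at least 0.6, against 88.4% of 7665 well expressed genes and 49.0% of 27305 promoters in all. The sequence GGGCGG, read on both strands, was in 77.5% of the 71, 72.6% of well expressed genes and 44.6% of all promoters. In both features the set lay nearer to well expressed genes than to all promoters. CCAAT, read on both strands, was in 25.4% of the 71, below the 37.9% of well expressed genes and 35.7% of all promoters. These differences were not tested. These windows sit at RefSeq starts. For some genes the transcript that led in day 12 EPZ011989 libraries starts far away, as in NRXN3 (1109533 bases), CACNA1D (171752) and MYO6 (68284). For such genes the window does not describe the promoter of that transcript. The stretches below lie before the start of transcription in RefSeq and before that of the transcript that led in day 12 EPZ011989 libraries. For RNASET2 this was RNASET2-201, while RNASET2-206, which led in vehicle libraries, starts upstream of the stretch shown. They are shown for the gene with the largest rise (TNC), the hair bundle cadherin CDH23, the neural transcription factor POU4F1, and the pair of genes that were lower at day 6 and higher at day 12 (SYT1 and RNASET2). Each is written 5′ to 3′ on the gene's own strand, and capitals mark CG pairs, the bases at which methylation of DNA takes place.
TNC (chr9:115118258-115118407, minus strand): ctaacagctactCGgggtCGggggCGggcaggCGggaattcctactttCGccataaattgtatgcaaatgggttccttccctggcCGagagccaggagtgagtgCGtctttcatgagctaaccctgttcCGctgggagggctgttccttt
CDH23 (chr10:71396770-71396919, plus strand): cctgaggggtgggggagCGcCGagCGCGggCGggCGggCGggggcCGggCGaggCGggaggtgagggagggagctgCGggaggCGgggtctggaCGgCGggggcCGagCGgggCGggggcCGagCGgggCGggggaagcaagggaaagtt
POU4F1 (chr13:78603561-78603710, minus strand): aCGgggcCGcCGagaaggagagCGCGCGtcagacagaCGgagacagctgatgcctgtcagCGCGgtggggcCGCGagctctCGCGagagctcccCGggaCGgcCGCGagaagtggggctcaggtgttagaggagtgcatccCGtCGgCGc
SYT1 (chr12:78864524-78864668, plus strand): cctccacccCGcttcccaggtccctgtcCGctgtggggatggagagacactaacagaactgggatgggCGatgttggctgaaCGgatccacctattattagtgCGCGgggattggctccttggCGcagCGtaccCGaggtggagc
RNASET2 (chr6:166956585-166956734, minus strand): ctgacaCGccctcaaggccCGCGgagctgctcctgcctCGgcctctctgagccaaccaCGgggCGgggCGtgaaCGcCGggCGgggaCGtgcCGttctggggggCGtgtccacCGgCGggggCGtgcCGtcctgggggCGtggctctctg

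The 5 stretches hold 8 CG pairs in TNC, 20 in CDH23, 20 in POU4F1, 9 in SYT1 and 18 in RNASET2. TNC and SYT1 are therefore the poorer in CG of those shown, and these 2 genes moved in opposite directions at day 6.

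The libraries held 15994997 to 20866370 estimated reads. Nothing in the labels tells whether replicate libraries came from separate cultures, and p-values therefore reflect a spread that may be technical. In bulk RNA, more cells with a transcript and more transcript per cell cannot be told apart. The 12 markers fixed for the line were found in all libraries, with summed levels, scaled to library size as CPM, of 3623 to 3697 CPM in EPZ011989 and 4072 to 4200 CPM in vehicle libraries at day 6, and 3678 to 3937 CPM in EPZ011989 and 3632 to 4083 CPM in vehicle libraries at day 12. Single markers moved in both directions. At day 12 the mean CPM in EPZ011989 and vehicle libraries was 366 and 161 for CHGA, and 193 and 114 for SYP. It was 206 and 375 for ISL1, 284 and 425 for INSM1, and 140 and 235 for NCAM1. EZH2 mRNA fell by 0.18 ± 0.05 on the log2 scale at day 6 (SE, edgeR adjusted p = 0.0112), and at day 12 its normalized counts were 1282, 1100 and 1002 in EPZ011989 and 2955, 3033 and 2964 in vehicle libraries. At day 6 its homologue EZH1 had a log2 change of 0.09 ± 0.08 (edgeR adjusted p = 0.449).

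At day 12 the 96 ratios of mean normalized count ran from 4.03 to 70.4, with a median of 5.68. They were under 5 for 31 genes and at least 8 for 19. In 96 of 96 genes each day 12 EPZ011989 library lay above each day 12 vehicle library, which the rule makes likely and which held for 26.1% of well expressed genes. The vehicle level of these genes was steady, with quartiles of 0.890 and 1.16 for the ratio of day 12 to day 6 vehicle means. Summed over the 96 genes, the level in TPM (a unit that corrects for library size and transcript length) was 5846 ± 46.8 in EPZ011989 and 2324 ± 8.98 in vehicle libraries at day 6, and 16506 ± 536 in EPZ011989 and 2347 ± 46.9 in vehicle libraries at day 12 (SD, n = 3 each). HLA-E and PLCH2 add almost nothing to these sums. Their matched transcripts held only 0.000446 and 0.0452 of their level in the authors' table.

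At day 6 edgeR could test 95 of the 96 genes, and 91 were raised at an adjusted p under 0.05, 59 of them at least 2-fold. Of all 15024 tested genes 17.1% were raised and 7.1% were raised at least 2-fold. Of the 9350 well expressed genes tested, 13.3% were raised and 1.29% at least 2-fold, while 25.1% were lowered. In all tested genes 17.0% were lowered. The median log2 fold change of the 96 genes at day 6 was 1.09, against -0.02 over all tested genes and -0.07 over well expressed genes. The 2 days have separate vehicle libraries. Only SYT1 and RNASET2 were lowered, PRR15L and ATP7B passed in neither direction, and HLA-E was not tested because its transcripts were largely unmatched here. In 91 of the 96 genes all day 6 EPZ011989 libraries lay above all day 6 vehicle libraries (16.3% of well expressed genes did so), in 2 they lay below (30.1%), and in PRR15L, ATP7B and EFL1 the groups overlapped. Just 11 well expressed genes reached a ratio of 4 at day 6, namely TNC, CDKN1C, CDH23, ADGRL3, CD24, POU4F1, THSD7B, CADM1, VCAN, NPTX1 and KCNH7, and all 11 are among the 96.

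**Figure D1:**
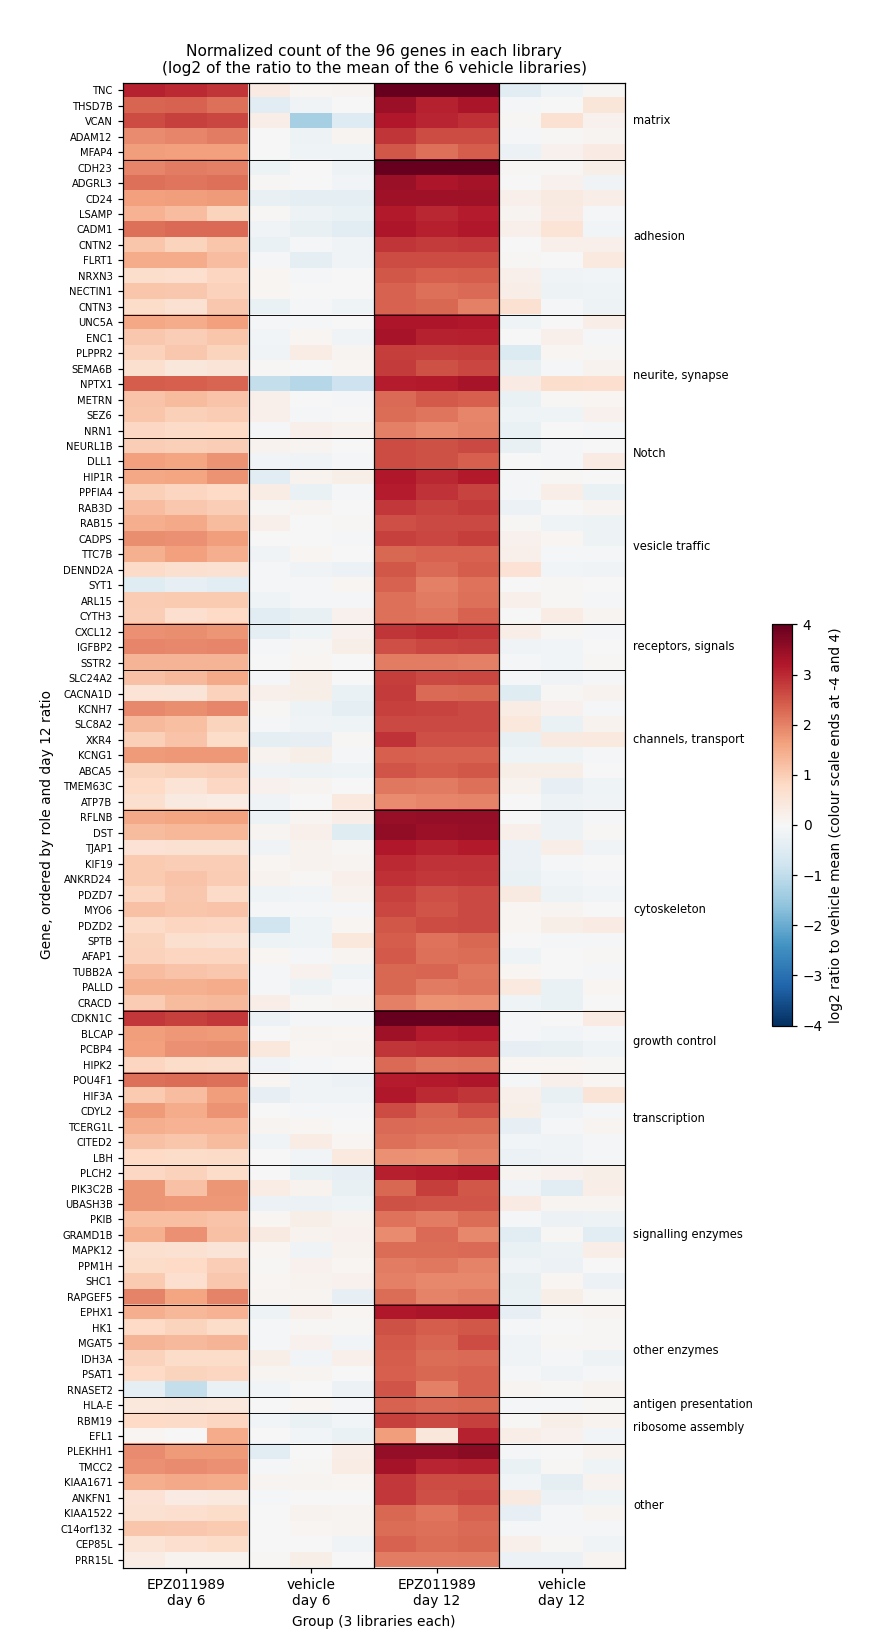
Each row is 1 of the 96 genes and each column 1 library, and colour gives the log2 ratio of its normalized count to the mean of the 6 vehicle libraries, with the scale ending at -4 and 4. Nearly every row is pale red in the day 6 EPZ011989 columns and deeper red at day 12, while SYT1 and RNASET2 are blue at day 6.

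**Figure D2:**
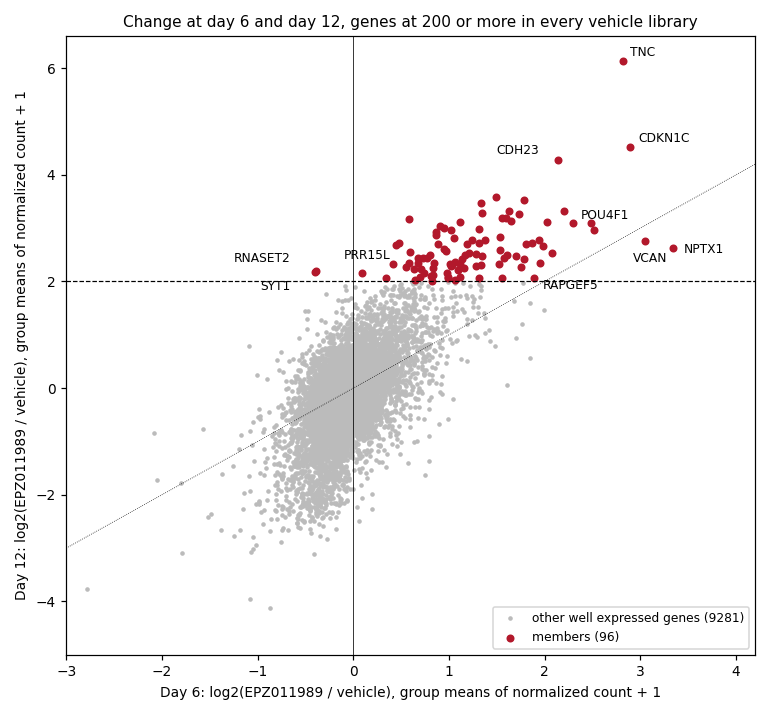
Each point is a gene at 200 or more in every vehicle library, placed by the log2 ratio of EPZ011989 to vehicle means (normalized count + 1) at day 6 on the x axis and at day 12 on the y axis. Red points are the 96 genes, grey points the other 9281, the dashed line is the day 12 limit that defines the set, and the dotted line marks equal change, below which VCAN and NPTX1 lie.

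The genes are described by role below, in groups drawn up with their values known, and library values are normalized counts from the authors' table. Since 91 of the 95 tested genes were raised at day 6, a group with all or nearly all genes raised matches the whole set. Matrix and matrix-binding genes held the largest rise of all. TNC encodes tenascin-C, a matrix glycoprotein of developing and remodelling tissue. It read 3733, 3458 and 3229 in EPZ011989 and 548, 461 and 470 in vehicle libraries at day 6, and 29330, 24728 and 27939 in EPZ011989 and 320, 392 and 452 in vehicle libraries at day 12. The ratio at day 12 was 70.4, and the log2 fold change at day 6 was 3.09 ± 0.09 (edgeR adjusted p = 1.01e-11). VCAN encodes versican, a large chondroitin sulfate proteoglycan. Its libraries read 5309, 5819 and 5605 in EPZ011989 and 1046, 353 and 617 in vehicle at day 6, then 8037, 7290 and 6717 in EPZ011989 and 908, 1352 and 988 in vehicle at day 12. VCAN thus stood near its day 12 level by day 6 (log2 fold change 3.19 ± 0.07, edgeR adjusted p = 2.81e-13), with vehicle libraries that ranged widely at day 6. The metalloprotease ADAM12, the microfibril protein MFAP4 and THSD7B, which carries thrombospondin repeats, had day 12 ratios of 6.38, 4.83 and 8.51, and all 5 genes of the group were raised at day 6. The median share of the rise was the highest of the groups with 5 or more genes, at 53.5%. MFAP4 overlaps MAPK7 on the opposite strand, and the sources used here do not state whether counting used strand. Fibroblasts also make matrix. The summed level of 8 fibroblast markers was 22.03 to 30.2 CPM in EPZ011989 and 14.9 to 20.01 CPM in vehicle libraries at day 6, and 18.7 to 21.5 CPM in EPZ011989 and 9.59 to 14.1 CPM in vehicle libraries at day 12. At day 12 the means were 13.9 CPM in EPZ011989 and 10.4 CPM in vehicle libraries for DCN, 4.86 and 0.31 CPM for COL1A1, and 0.76 and 0.04 CPM for PDGFRA, while PDGFRB, LUM and FAP were under 1 CPM in every library. The part of other cells in these results was not tested.

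All 10 cell adhesion genes were raised at day 6, with a median ratio of 2.74 at day 6 and 7.14 at day 12. CDH23 encodes a long cadherin that forms the tip links of sensory hair bundles. It read 5225, 5611 and 5506 in EPZ011989 and 1177, 1354 and 1180 in vehicle libraries at day 6, and 29358, 28232 and 27608 in EPZ011989 and 1398, 1407 and 1582 in vehicle libraries at day 12. Replicates lay close together against a ratio of 19.4 at day 12, and the day 6 log2 fold change was 2.55 ± 0.06 (edgeR adjusted p = 6.85e-13). Both contactins among the well expressed genes were in the set. CNTN2, an immunoglobulin-type adhesion protein of axons, read 7600, 6429 and 7450 in EPZ011989 and 2874, 3356 and 3193 in vehicle libraries at day 6, and 25407, 24367 and 24936 in EPZ011989 and 3531, 3980 and 3974 in vehicle libraries at day 12. CNTN3 had day 12 ratio 4.2, near the limit. CADM1, a homophilic adhesion protein of epithelia and synapses, was raised early, at 2341, 2446 and 2474 in EPZ011989 and 467, 417 and 381 in vehicle libraries at day 6, with day 12 ratio 7.78. The neuronal GPI-anchored protein LSAMP, the junction protein NECTIN1 and the leucine-rich repeat protein FLRT1 had day 12 ratios of 7.93, 4.92 and 5.46. The latrophilin ADGRL3, an adhesion receptor of synapses, had a ratio of 4.59 at day 6 and 10.0 at day 12. Its partners in the group were the synaptic organizer NRXN3 and the small glycoprotein CD24, whose reads can be shared with pseudogene copies, at day 12 ratios of 5.44 and 8.66.

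Genes of axon guidance, neurite growth and synapse assembly were raised at day 6 in 8 of 8 cases. UNC5A, a receptor for the guidance cue netrin, read 1369, 1329 and 1464 in EPZ011989 and 444, 457 and 474 in vehicle libraries at day 6, and 4456, 4497 and 4367 in EPZ011989 and 423, 472 and 570 in vehicle libraries at day 12. NPTX1 encodes a secreted pentraxin that gathers glutamate receptors at synapses, and it had the largest day 6 ratio of the 96, 10.2. Its libraries read 2779, 2673 and 2558 in EPZ011989 and 266, 233 and 286 in vehicle at day 6, against 4530, 4602 and 5061 in EPZ011989 and 642, 843 and 811 in vehicle at day 12. The day 12 ratio was lower, 6.18, while the treated level was higher, because the vehicle mean at day 12 was 2.92 times that at day 6, the largest vehicle change in the set. SEMA6B, a transmembrane semaphorin, moved late, at 1310, 1146 and 1205 in EPZ011989 and 874, 858 and 894 in vehicle libraries at day 6 (log2 fold change 0.42 ± 0.13, edgeR adjusted p = 0.0232), with day 12 ratio 6.61. That day 6 call was lost without EPZ011989 replicate 1 (0.39, edgeR adjusted p = 0.0767), without EPZ011989 replicate 3 (0.43, edgeR adjusted p = 0.0531) and without vehicle replicate 1 (0.40, edgeR adjusted p = 0.0637). METRN, a secreted neurite-promoting protein, had 538 TPM in EPZ011989 and 92.7 TPM in vehicle libraries at day 12. That was among the 6 highest summed TPM values of the set, a ranking that cannot place HLA-E. The remaining genes, ENC1, PLPPR2, SEZ6 and NRN1, had day 12 ratios of 8.68, 7.3, 4.47 and 4.22. The Notch ligand DLL1 and NEURL1B, a ubiquitin ligase that acts on Notch ligands, had day 12 ratios of 5.36 and 6.5, and both were raised at day 6.

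The exocytosis and vesicle group held 10 genes, of which 9 were raised and 1, SYT1, was lowered at day 6. CADPS primes dense-core vesicles for release. It read 4353, 4240 and 3798 in EPZ011989 and 1204, 1200 and 1150 in vehicle libraries at day 6, and 8087, 7593 and 8166 in EPZ011989 and 1352, 1259 and 1051 in vehicle libraries at day 12. RAB3D and RAB15, small GTPases of secretory and recycling vesicles, had day 12 ratios of 7.07 and 6.64. RAB3D overlaps TMEM205 and CCDC159. HIP1R, PPFIA4, TTC7B, DENND2A, ARL15 and CYTH3, which act in membrane traffic or presynaptic assembly, ran from 4.25 to 8.78 at day 12.

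A further group held 3 genes for receptors and secreted signals. SSTR2 encodes the somatostatin receptor used for imaging and treating neuroendocrine tumours. It read 4133, 4112 and 4087 in EPZ011989 and 1626, 1692 and 1626 in vehicle libraries at day 6, and 6585, 6590 and 6479 in EPZ011989 and 1546, 1472 and 1653 in vehicle libraries at day 12. The groups did not overlap on either day, and the day 6 log2 fold change was 1.37 ± 0.05 (edgeR adjusted p = 2.93e-11). IGFBP2, which binds insulin-like growth factors, had ratios of 3.65 at day 6 and 6.62 at day 12, and the chemokine CXCL12 had 3.84 and 6.9. The 3 genes had 41.4 to 52.8% of their day 12 rise by day 6.

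Among 9 channels and transporters 8 were raised at day 6. KCNH7, a potassium channel of the ERG type, read 2237, 2155 and 2306 in EPZ011989 and 607, 511 and 463 in vehicle libraries at day 6, and 3958, 3840 and 3650 in EPZ011989 and 729, 664 and 572 in vehicle libraries at day 12. KCNG1, a silent modifier subunit of potassium channels, had ratios of 3.06 and 5.67 on the 2 days, and CACNA1D, the pore of an L-type calcium channel, 1.51 and 5.86. KCNH7 overlaps GCA, and CACNA1D overlaps CHDH, on the opposite strand. The sodium-calcium exchangers SLC24A2 and SLC8A2, the first also carrying potassium, had day 12 ratios of 6.83 and 5.73. The lipid transporter ABCA5 had the highest summed TPM of the set, at 1050 TPM in EPZ011989 and 194 TPM in vehicle libraries at day 12. XKR4 and TMEM63C, membrane proteins of the scramblase and mechanosensitive channel families, had 5.69 and 4.68. The copper pump ATP7B did not pass at day 6 (0.32 ± 0.15, edgeR adjusted p = 0.117), with day 12 ratio 4.17, though it passed without EPZ011989 replicate 2 of day 6 (0.47, edgeR adjusted p = 0.0237) and without the filter on low counts (0.33, edgeR adjusted p = 0.0452).

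All 13 cytoskeletal and hair bundle genes were raised at day 6, with ratios of 1.5 to 2.94 at day 6 and 4.07 to 12.0 at day 12. Their median day 6 ratio was 2.10, against 2.22 for all 96 genes. MYO6, the myosin that moves towards the pointed end of actin, read 14830, 14140 and 14362 in EPZ011989 and 6320, 6212 and 6157 in vehicle libraries at day 6, and 41772, 37768 and 40491 in EPZ011989 and 6901, 7095 and 6647 in vehicle libraries at day 12. PDZD7 organizes the ankle links of hair bundles and shares a deafness role with MYO6 and CDH23; it had ratios of 1.93 at day 6 and 6.11 at day 12, and it overlaps LZTS2. KIF19, a kinesin that shortens cilia in mice, reached 822 TPM in EPZ011989 and 93.2 TPM in vehicle libraries at day 12, with ratio 8.18. The filamin partner RFLNB and the giant linker DST, dystonin, had the largest day 12 ratios here, 12.0 and 11.0. TJAP1, a tight junction protein, was late, at 961, 971 and 990 in EPZ011989 and 588, 708 and 657 in vehicle libraries at day 6, and 5854, 5416 and 5803 in EPZ011989 and 547, 775 and 577 in vehicle libraries at day 12. The spectrin SPTB, the actin proteins PALLD, AFAP1 and CRACD, the tubulin TUBB2A, and ANKRD24 and PDZD2 ran from 4.07 to 7.99 at day 12. Reads of TUBB2A can be shared with its near-identical neighbour TUBB2B.

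Growth control was represented by 4 genes. CDKN1C encodes p57, an inhibitor of cyclin-dependent kinases that is expressed from the maternal allele. It read 1881, 1744 and 1873 in EPZ011989 and 225, 254 and 256 in vehicle libraries at day 6, and 6548, 6575 and 6598 in EPZ011989 and 255, 262 and 335 in vehicle libraries at day 12. That is the second largest ratio of the set, 23.1, with day 6 log2 fold change 2.70 ± 0.11 (edgeR adjusted p = 3.47e-10). BLCAP and PCBP4, both of which restrain growth when overexpressed, had day 12 ratios of 10.0 and 9.1, and the kinase HIPK2 had 4.34. PCBP4 overlaps ABHD14B on the same strand.

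All 6 transcription and chromatin genes were raised at day 6. POU4F1 (BRN3A) is a homeodomain factor of sensory neurons. It read 2062, 2078 and 2064 in EPZ011989 and 474, 402 and 381 in vehicle libraries at day 6, and 3959, 4000 and 4159 in EPZ011989 and 434, 513 and 473 in vehicle libraries at day 12, with day 6 log2 fold change 2.27 ± 0.08 (edgeR adjusted p = 4.61e-11). HIF3A, the third hypoxia-inducible factor alpha subunit, had ratios of 2.9 and 7.19. CDYL2, a chromodomain protein, TCERG1L, CITED2 and LBH ran from 4.06 to 5.56 at day 12.

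The other genes were enzymes and signalling proteins, or have little-described roles. The phosphatase UBASH3B was raised early, with ratios of 3.88 and 5.06. RAPGEF5, which activates Rap GTPases, read 1118, 845 and 1128 in EPZ011989 and 304, 302 and 226 in vehicle libraries at day 6, against 1338, 1127 and 1165 in EPZ011989 and 238, 334 and 293 in vehicle libraries at day 12. Its day 6 call rests on partly matched reads (2.72 ± 0.76, edgeR adjusted p = 0.0126) and was lost with the DESeq2 test (2.72, DESeq2 adjusted p = 0.123) and with transcript lengths as an offset (2.61, edgeR adjusted p = 0.05). GRAMD1B, PIK3C2B, PKIB, MAPK12, PPM1H, SHC1 and PLCH2 ran from 4.29 to 7.86. EPHX1, a microsomal epoxide hydrolase, had ratios of 2.55 and 9.76, while hexokinase HK1, the glycosyltransferase MGAT5, the citric acid cycle subunit IDH3A and the serine synthesis enzyme PSAT1 had 5.62, 5.57, 5.43 and 5.41 at day 12. PLEKHH1 and TMCC2 had day 12 ratios of 11.5 and 9.7. KIAA1671, KIAA1522, C14orf132, CEP85L and ANKFN1 ran from 4.72 to 6.9. ANKFN1 was summed only in part, and its day 6 call (1.43 ± 0.52, edgeR adjusted p = 0.0481) was lost in 9 of 21 alternatives, in which its log2 fold change was 0.81 to 1.60. HLA-E, a non-classical MHC class I molecule read by NK cells, had 4885, 4950 and 4875 in EPZ011989 and 3646, 3840 and 3532 in vehicle libraries at day 6, and 18679, 17531 and 18124 in EPZ011989 and 3526, 3567 and 3796 in vehicle libraries at day 12. The groups did not overlap on either day, and limma on the authors' table gave a day 6 log2 fold change of 0.42 (limma adjusted p = 3e-05).

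The share of the day 12 rise that was present at day 6 is the difference between EPZ011989 and vehicle means at day 6, divided by the same difference at day 12. Its median was 24.0%, with quartiles of 16.0 and 36.2%. It was negative for 2 genes, 0 to 10% for 6, 10 to 25% for 43, 25 to 50% for 34, 50 to 75% for 9 and above that for 2. RAPGEF5 (81.7%), VCAN (78.3%), NPTX1 (60.7%), MFAP4 (54.1%), UBASH3B (54.0%) and KCNH7 (54.0%) had the highest shares. SYT1 (-6.82%), RNASET2 (-5.65%), PRR15L (2.16%), TJAP1 (6.39%), ANKFN1 (6.58%) and SEMA6B (7.58%) had the lowest. TNC, with the largest rise, had 11.1%. As a share of log2 fold changes the median was 46.2%. NPTX1 and VCAN exceed the whole on that scale, at 127% and 111%, since their vehicle means were 2.92 and 1.61 times higher at day 12 than at day 6. By group, the median share was 53.5% for the 5 matrix genes, 49.3% for the 3 receptors and signals, 39.0% for 6 transcription genes, 25.3% for 10 adhesion genes, 22.9% for 8 neurite and synapse genes, and 18.3% for 13 cytoskeletal genes. It was 33.1% for the 2 Notch genes, 32.7% for 9 signalling enzymes, 26.0% for 10 vesicle genes, 25.5% for 4 growth control genes, 23.2% for 9 channels and transporters, 19.2% for 8 other genes, 18.6% for the 2 ribosome assembly factors and 17.2% for 6 other enzymes, and HLA-E had 8.5%. Ranges within groups were wide, from 11.1 to 78.3% among matrix genes and from 6.39 to 52.2% among cytoskeletal genes. In 94 of the 96 genes each day 12 EPZ011989 library lay above each day 6 EPZ011989 library.

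**Figure D3:**
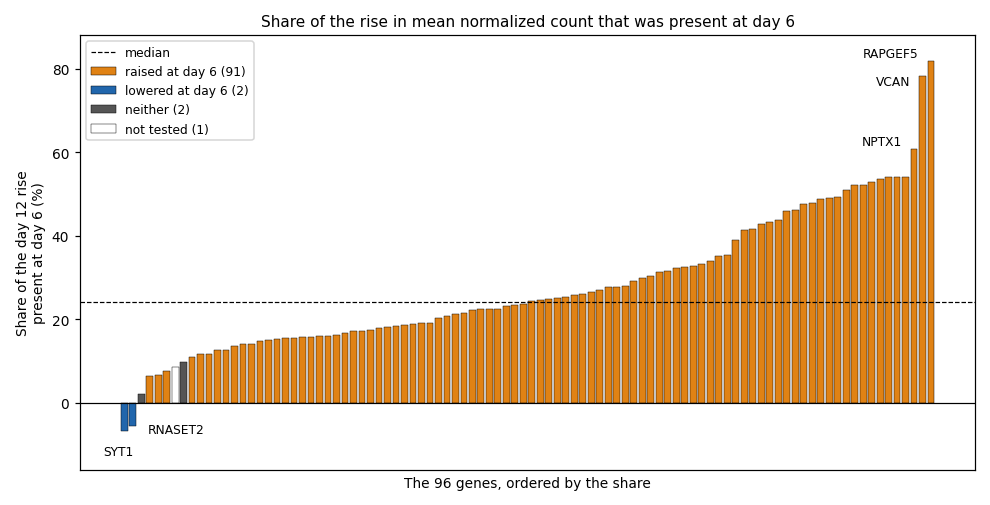
Bars give, for each of the 96 genes in order, the percentage of its day 12 rise in mean normalized count that was present at day 6, coloured by the day 6 edgeR call. The dashed line is the median of 24.0%, SYT1 and RNASET2 fall below 0, and RAPGEF5 and VCAN stand highest.

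SYT1 and RNASET2 ran the other way at day 6. SYT1 encodes synaptotagmin 1, the calcium sensor of vesicle release, and read 309, 340 and 318 in EPZ011989 and 414, 416 and 449 in vehicle libraries at day 6, and 2202, 1749 and 1920 in EPZ011989 and 421, 447 and 422 in vehicle libraries at day 12. Every EPZ011989 library of SYT1 was below every vehicle library at day 6, as in 30.1% of well expressed genes. At day 12 each was above, as in 96 of 96 genes of the set, while the vehicle level of SYT1 hardly moved. Its day 6 fall was 0.40 ± 0.10 on the log2 scale (edgeR adjusted p = 0.00511). RNASET2, a secreted acid ribonuclease, read 226, 152 and 245 in EPZ011989 and 271, 296 and 251 in vehicle libraries at day 6, and 1685, 1204 and 1497 in EPZ011989 and 321, 306 and 324 in vehicle libraries at day 12. The day 6 gap was narrow, with the nearest libraries at 245 in EPZ011989 and 251 in vehicle. It fell by 0.41 ± 0.12 on the log2 scale (edgeR adjusted p = 0.0135), a call lost with limma on the authors' table (-0.42, limma adjusted p = 0.0936), with transcript lengths as an offset (-0.37, edgeR adjusted p = 0.139), without EPZ011989 replicate 2 (-0.31, edgeR adjusted p = 0.0674) and without vehicle replicate 2 (-0.38, edgeR adjusted p = 0.0513). The direction and most of the size thus stayed. PRR15L, of little-described role, read 415, 367 and 368 in EPZ011989 and 350, 394 and 336 in vehicle libraries at day 6, so the groups overlapped, and 1397, 1386 and 1405 in EPZ011989 and 289, 284 and 363 in vehicle libraries at day 12.

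**Figure D4:**
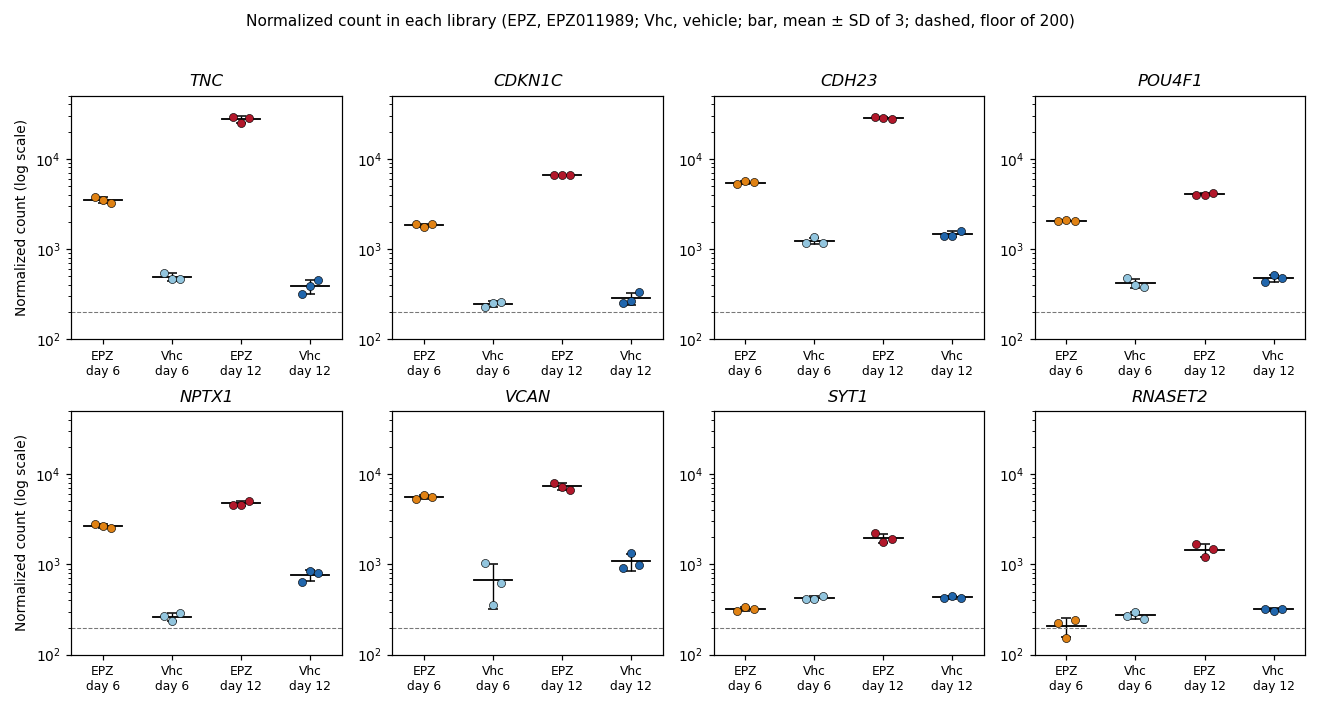
Points are the normalized counts of single libraries on a log scale for 8 genes, bars the mean ± SD of 3 libraries, and the dashed line the floor of 200. TNC, CDKN1C, CDH23 and POU4F1 step up at both times, NPTX1 and VCAN are mostly raised by day 6, and SYT1 and RNASET2 lie slightly below vehicle at day 6 and above it at day 12.

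Transcript tables show where a ratio depends on which transcript the reads were given to. In the 87 completely summed genes, the day 12 log2 ratio in the authors' table differed from that in TPM by a median of 0.000786 and from that in reads by 0.0719, each after centring on its median. A shift to shorter transcripts raises its ratio above that of the reads. For 82 of the 96 genes the same transcript led in TPM in EPZ011989 and vehicle libraries at day 12. Among the 14 others, KIAA1671-202 made up 60.9% of the gene's TPM in EPZ011989 and 5.07% in vehicle libraries at day 12, RAPGEF5-202 75.3% and 15.6%, TMCC2-207 55.3% and 18.5%, and AFAP1-202 60.9% and 25.4%. RBM19, a ribosome assembly factor, had a ratio of 5.91 in the authors' table but 3.28 in summed reads, with the noncoding transcript RBM19-207 at 73.9% of TPM in EPZ011989 and 31.3% in vehicle libraries. CDH23 went the other way. Its full-length transcript CDH23-201 was 60.3% of TPM in EPZ011989 and 24.4% in vehicle libraries at day 12, and its read ratio was 32.1 against 19.4 in the table.

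EFL1, a GTPase of ribosome assembly, belongs to the set through very few reads. Its normalized counts were 2262, 973 and 6000 in EPZ011989 and 847, 790 and 653 in vehicle libraries at day 12, a spread that no other gene of the set shows. The transcript EFL1-207, which is 154 bases long, had 1, 0 and 4 reads in the EPZ011989 libraries and 0 in each vehicle library, and at an effective length of 2 bases these became 43.6, 0 and 190 TPM. The ratio of summed reads for the whole gene was 1.33. Its day 6 libraries overlapped, at 742, 691 and 1995 in EPZ011989 and 693, 661 and 590 in vehicle, and its day 6 call on reads (0.26 ± 0.09, edgeR adjusted p = 0.0492) was lost in 10 of 21 alternatives. Without EPZ011989 replicate 3 of day 12 EFL1 left the set. In reads, 91 of the 96 genes had a day 12 ratio of at least 4, counting HLA-E, whose ratio rests on almost no matched reads and is no support. The others were EFL1, RBM19, CRACD (3.72), ATP7B (3.94) and PLCH2, whose matched transcripts held only 0.0452 of its level in the authors' table. For PLCH2, a phospholipase C, the day 12 ratio of these reads was 0.497. Its day 6 call on reads (3.24 ± 1.02, edgeR adjusted p = 0.0239) is therefore weakly founded. That call was lost with transcript lengths as an offset (2.95, edgeR adjusted p = 0.0768). With limma on the authors' table its day 6 log2 fold change was 1.03 (limma adjusted p = 5.16e-06). Exons of ENC1, DENND2A, IDH3A, MAPK12, PALLD, PLEKHH1, SHC1 and TMEM63C also overlap those of other expressed genes, between which reads could be split.

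**Figure D5:**
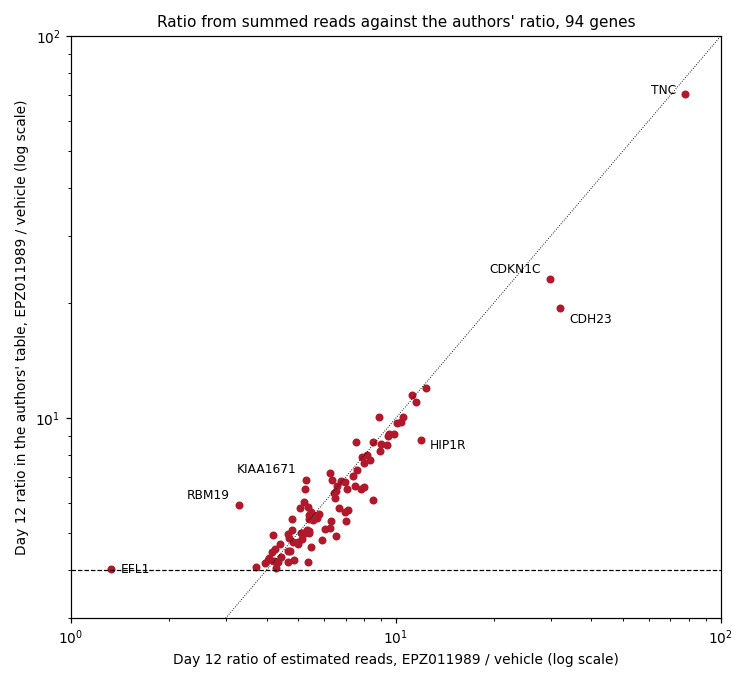
Each point is 1 of 94 genes, placed by the day 12 ratio of EPZ011989 to vehicle in summed estimated reads on the x axis and in the authors' table on the y axis, both on log scales. Most points lie near the dotted line of equal ratios, EFL1 (1.33 in reads) and RBM19 (3.28) lie to its left, and CDH23 (32.1) lies to its right.

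Of the 96 genes, 32 were in 1 or more of 30 gene lists and 64 in none. Neural immunoglobulin-type adhesion genes held 5 of the set (CNTN2, CNTN3, CADM1, NECTIN1 and LSAMP), and at day 6 27 of 45 tested genes of that list were raised and 8 lowered, with a median log2 fold change of 0.41. Hair cell and otic genes held 3 (CDH23, MYO6 and PDZD7), with 27 of 63 raised and 7 lowered (median 0.61). Axon guidance genes held SEMA6B, UNC5A and FLRT1, with 32 of 69 raised and 11 lowered (median 0.34). Matrix glycoproteins and proteoglycans held TNC, VCAN and MFAP4, with 27 of 74 raised and 14 lowered (median 0.34). Ion channels held CACNA1D, KCNG1 and KCNH7, with 50 of 115 raised and 20 lowered (median 0.46), and neuroendocrine secretory genes held SYT1, CADPS and RAB3D, with 25 of 62 raised and 8 lowered (median 0.19). Developmental transcription factors held POU4F1 and HIF3A only, with 86 of 206 raised and 29 lowered (median 0.34). Of 50 well expressed proliferation genes 0 were in the set, which is near the 1.02% background. In that list 40 of 49 tested genes were lowered and 0 raised at day 6 (median -0.35). The 19 well expressed Merkel cell lineage markers also had 0 genes in the set. Of the 20 tested, 3 were raised and 12 lowered (median -0.23). Cell cycle inhibitors held 1 of 18 (CDKN1C), with 4 of 20 raised and 8 lowered (median -0.16). Lists of collagens, integrins, cilium genes, PRC2 and PRC1 subunits, Wnt and TGF-beta genes had 0 genes in the set, of 3, 2, 16, 36, 19 and 24 that were well expressed. Against the 1.02% of well expressed genes in the set, each of these counts of 0 is near the background. No family of symbols had more than 2 genes in it.

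The 96 genes were spread over the genome, with 12 on chromosome 6, which is 2.64% of its well expressed genes, and 0 on chromosomes X, 18 and 21. Some were close neighbours. RAB3D and PLPPR2 lie 9116 bases apart on chromosome 19 with no well expressed gene between them, and SPTB and RAB15 lie 65907 bases apart on chromosome 14 with 1 between them. On chromosome 1, CNTN2 lies 149892 bases from TMCC2 and 548213 bases from PIK3C2B.

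At the limits of the rule, LBH (4.06), CRACD (4.07) and EFL1 (4.03) had the lowest ratios inside, and TMEM184A (3.98), LDB3 (3.95) and ACSL4 (3.95) the highest outside. The lowest vehicle libraries inside were those of CACNA1D (205), GRAMD1B (206) and KIAA1671 (210.0), and just outside lay CRIP2 (195.0), PDE5A (194.9) and FAT4 (194.3), whose day 12 ratios were 5.75, 4.56 and 12.5. Leaving out 1 library in turn removed at most 3 of the 96 genes, and those removed in 1 case or more were EFL1, LBH, CRACD, RAPGEF5, CNTN3 and PALLD.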

How the data were processed

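Each library had a table of transcripts with estimated counts, TPM and effective lengths, which the authors made using Salmon 1.2.0. The submitters' processing notes give this version and list FastQC, DESeq2 and hg38 as well. A deposited table of the whole series held the authors' normalized gene signal, called normalized counts here, whose exact normalization the sources used here do not give.

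Of 179883 transcripts 168219 (93.5%) were matched to GENCODE 29 genes, and unmatched ones held 3.08 to 3.58% of reads. Estimated counts were summed per gene and rounded. Summed reads lay within 0.8 to 1.25 times the authors' level for 87 of the 96 genes. Genes were kept by filterByExpr, scaled by TMM and tested by the two-sided quasi-likelihood test of edgeR 4.0.16 under R 4.3.3, in a single fit of the 4 groups and 12 libraries, with Benjamini-Hochberg adjustment over 15024 genes at 0.05. On simulated day 6 data for 14151 genes it recovered 88% of 2-fold and 95% of 4-fold changes, with 9 false calls. The simulation changed 100 genes at each size, raised and lowered alike, with a spread smoothed over genes of like level. Far more genes were called in the data, so these rates need not hold there. Alternatives used limma 3.58.1 on log2(normalized count + 1) or + 5, and DESeq2 1.42.0.

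The 96 genes, gene lists and role groups were chosen with earlier results of these data known. The naming rule took the 12 largest day 12 ratios, 6 highest and 6 lowest shares, 6 highest TPM, up to 4 genes per list, genes not raised at day 6 and those nearest the limits. Other members are named by role only, chosen after their values were seen.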

Additional observations from a re-analysis of the deposited data

Results flagged for a closer look

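SYT1 and RNASET2 were flagged because every EPZ011989 library lay below every vehicle library at day 6 and above every vehicle library at day 12. The day 12 part held for 96 of 96 genes, which the rule makes likely. The day 6 part held for 2 of the 96 genes and for 30.1% of well expressed genes. Their day 6 log2 fold changes were -0.40 for SYT1 and -0.41 for RNASET2 (edgeR). The difference between days was not tested, because the day 12 rise was used to choose the genes. For RNASET2 the nearest day 6 libraries, 245 in EPZ011989 and 251 in vehicle, were almost level.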

How the results depend on the processing

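The median day 6 log2 fold change of the 96 genes was 1.09. It was 1.10 with DESeq2 size factors, 1.13 with library totals, 1.11 without the filter on low counts, 1.12 with only the day 6 libraries, 1.19 with transcript lengths as an offset, and 1.15 with limma at either pseudocount (1.153 and 1.146). It was 1.09 in the 87 completely summed genes, of which 84 were raised, an alternative chosen after seeing the data. With a floor of 100 the median was 1.15 and 140 genes were raised, with a floor of 400 it was 1.05 and 55 were raised, with a ratio of 3 it was 0.83 and 179 were raised, and with a ratio of 6 it was 1.49 and 42 were raised. Leaving out 1 library at a time gave medians of 1.08 to 1.12, 87 to 91 genes raised, 95 to 102 genes in the set, and a median share of 23.0 to 25%. The median share was 46.2% on log2 fold changes and 22.3% in TPM. Applied to TMM-scaled summed counts, the rule gave 92 genes, without 14 of the 96 and with 10 others. CDKN1C was lost through the floor, with a day 12 ratio of 29.8 in reads. The number of raised genes was 91 with the replicate block and the median 1.09, and same-numbered libraries did not deviate together (correlations of -0.046 to 0.054). Of the 56 tested genes that the naming rule took, 50 kept their day 6 call and direction under all 21 alternatives, and no direction reversed. The other 6 were ANKFN1, ATP7B, EFL1, RAPGEF5, RNASET2 and SEMA6B. PLCH2 was not among the 56, and its day 6 call was lost with transcript lengths as an offset. EFL1, ANKFN1, RAPGEF5, PLCH2 and HLA-E are limited by few or partly matched reads.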
